A study of Mus musculus with 16 samples.

Results

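The CpG methylation of the mouse H19 and Meg3 imprinted loci was followed through a chemical reprogramming course, from fibroblasts to induced pluripotent stem cells (iPSCs). The members were all listed CpG sites inside 3 windows of the GRCm39 genome. These were the H19 control region and gene at chr7:142129000-142137000, the Dlk1-Meg3 intergenic region at chr12:109491000-109499000, and the Meg3 promoter at chr12:109503000-109509000. They held 172 of the 3179510 CpG sites listed in any library, of which 58 were among the 873038 common sites, meaning sites with at least 10 reads in all 16 libraries. The H19 window held 45 listed and 18 common sites, and the Meg3 window held 127 listed and 40 common sites. The intergenic window held 0 listed sites in all 16 libraries, so no level was obtained for the germline control region of the Meg3 locus.

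Reduced representation bisulfite sequencing (RRBS), which reads CpG-rich fragments cut by the enzyme MspI, was run on 8 groups of 2 libraries. Groups D2 to D12 were cells collected every 2 days in reprogramming medium, and D0 was the starting mouse embryonic fibroblasts (MEFs), taken from E13.5 embryos of the 129XOG2 strain and used at passages 1-3. OG2 mice are known to carry a green fluorescent protein transgene driven by Pou5f1 (Oct4) sequence, so all groups shared that background. The iPSCs grew on feeders in mouse embryonic stem cell medium with LIF and 2 small molecules, CHIR99021 and PD0325901. The labels do not say whether feeders were removed, or whether the iPSC libraries come from 1 line or several. The labels do not say whether the 2 libraries of a group came from separate cultures, so p-values measure the spread between libraries, which may be technical.

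In mammals an imprinted gene is expressed from 1 parental allele, and a differentially methylated region laid down in the germline marks which one. At H19 and at Dlk1-Meg3 the mark is on the paternal allele: the H19 control region upstream of the gene and the intergenic region upstream of Meg3 are methylated in sperm, and the promoters of both genes become methylated on the same allele after fertilisation. H19 and Meg3 are noncoding RNAs expressed from the maternal, unmethylated allele, while their neighbours Igf2, a growth factor, and Dlk1, a transmembrane ligand related to Notch ligands, are expressed from the paternal one. In mouse iPSCs the Dlk1-Meg3 locus is known for gains of methylation that silence Meg3. With 1 methylated and 1 unmethylated allele, a site reads near 50% in a pool of cells. Because the files hold counts per site and no reads, the parental alleles cannot be told apart here, nor can a change in all cells from a change in some.

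The bases just before and after the Meg3 start are shown because their CpGs were low in iPSCs, at a mean of 3.12% methylated reads over common sites. They were picked for that level and were not tested as a set. The sequence is the RefSeq promoter entry of Meg3 (forward strand, GRCm38.p6, chr12:109540746-109541045), which runs 250 bases before to 50 after the start of the gene. Each CpG is in capitals.
Meg3 promoter: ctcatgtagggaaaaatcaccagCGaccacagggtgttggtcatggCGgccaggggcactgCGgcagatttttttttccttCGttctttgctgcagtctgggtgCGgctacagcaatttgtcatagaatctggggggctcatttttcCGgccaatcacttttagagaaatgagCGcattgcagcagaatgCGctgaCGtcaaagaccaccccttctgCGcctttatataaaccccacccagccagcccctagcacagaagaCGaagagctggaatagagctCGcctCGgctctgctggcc

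It holds 13 CpGs, of which 3 lie in the transcribed bases. The spacing of the 13 CpGs matched the listed GRCm39 positions at 1 placement, with all 13 found and 0 listed CpGs in between that the sequence lacks, while the next best placement matched 5. The entry contains CCGG, the site that MspI cuts, 1 time, at the sixth CpG. It also contains TGACGTCA, known as a cAMP response element, 1 time, around the ninth CpG. Both motifs read the same on both strands and do not overlap here. CCGG occurred in 52.8% and TGACGTCA in 1.79% of the 32851 promoter entries of the same length, and these matches are a description only. By symbol, 1 of the 2 genes was matched in the promoter table.

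The libraries listed 1480222 to 2516218 sites each, with a median coverage of 18 to 27 reads per site and 39011213 to 107834007 reads summed over sites. At the common sites of a window, 1284 to 4010 reads per library fell in the H19 window and 1152 to 2256 in the Meg3 window. Reads of windows and tiles are summed over sites, so a read that covers several sites is counted at each. A level below is the share of reads that were methylated at common sites, and a group value is the mean ± SD of its 2 libraries. Levels were compared with edgeR's quasi-likelihood test, with Benjamini-Hochberg adjustment over 94337 genome-wide 1-kb tiles, the windows and their flanks. Calls required both an adjusted p below 0.05 and group means at least 10 percentage points apart. Methylation was lower over most of the genome at D12: the median tile stood at 63.6% in iPSCs and 15.7% at D12, against 65.7% at D0. Over 4542 tiles that stayed under 15% in every library, the mean lay between 3.34% and 5.06% in the 8 groups. Those tiles were picked for being low in these same libraries, so their mean is a reference for low levels and not a measured floor.

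At the Meg3 promoter window, methylation was lower at D12 than in fibroblasts and lower again in iPSCs. The 2 libraries of each group read 50.3% and 50.4% at D0, 53.1% and 52.8% at D2, 48.2% and 48.2% at D4, and 50.4% and 49.2% at D6. They read 44.2% and 40.8% at D8, 28.4% and 35.5% at D10, and 26.7% and 26.1% at D12. The iPSC libraries read 6.60% and 12.3%, below every library of the time course. From D0 to D6 all libraries stayed between 48.2% and 53.1%. These values average unlike sites. At D0 single common sites ran from 21.3% to 80.4% in replicate 1 and from 10.0% to 100% in replicate 2.

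The mean level was 26.4 ± 0.395% at D12 and 50.3 ± 0.0390% at D0 (SD, n = 2 each), a difference of -23.9 points (edgeR adjusted p = 0.000396). Of all tiles, 82.7% were called lower and 0.66% higher in this comparison. In iPSCs it was 9.44 ± 4.02%, against the same 50.3 ± 0.0390% at D0, which is -40.9 points (edgeR adjusted p = 3.83e-05). In this comparison 9.45% of tiles were called lower and 4.05% higher. Against D12 the iPSC level was -17.0 points apart (edgeR adjusted p = 0.000104). There 79.8% of tiles were called higher and 1.49% lower in iPSCs, so the window moved in the direction of the smaller share.

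Against D0 the Meg3 window was called lower on 2 days, D10 and D12. The D10 level of 31.9 ± 5.00% differed from 50.3 ± 0.0390% at D0 by -18.4 points (edgeR adjusted p = 0.00341), on a day when 81.7% of tiles were called lower. At D8 the level was 42.5 ± 2.44%, -7.82 points from D0 and not called (edgeR adjusted p = 0.167), while 72.4% of tiles already were. At D6 it was 49.8 ± 0.838%, and 21.4% of tiles were called lower on that day. In no step from one collection day to the next was the window called (edgeR adjusted p = 0.238 for D8 against D6, 0.120 for D10 against D8 and 0.313 for D12 against D10). The shares of tiles called lower in these 3 steps were 39.2%, 16.6% and 32%. In the earlier steps they were 0.0488% for D2 against D0, 0% for D4 against D2 and 6.71% for D6 against D4.

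The H19 window was called lower than the fibroblasts from D6 on, and no difference was called between iPSCs and fibroblasts. Most of its reads came from the first tile, and some other tiles were lower in iPSCs than at D0, as given below. The difference in timing from the Meg3 window was not tested. The 2 libraries read 56.3% and 60.2% at D0, 53.9% and 52.2% at D2, 44.2% and 52.0% at D4, and 41.5% and 39.1% at D6. They read 25.6% and 33.5% at D8, 16.3% and 18.7% at D10, and 10.6% and 10.0% at D12. The iPSC libraries read 59.4% and 59.5%, within the range of the D0 libraries. The levels of D6, D8, D10 and D12 did not overlap one another or D0.

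At D12 the H19 window stood at 10.3 ± 0.416%, against 58.2 ± 2.78% at D0, a difference of -47.9 points (edgeR adjusted p = 1.74e-07). In iPSCs it stood at 59.4 ± 0.111%, +1.21 points from D0 (edgeR adjusted p = 0.918) and +49.1 points from D12 (edgeR adjusted p = 2.06e-07). It was called lower than D0 on 4 days, from D6 on. At D6 the difference was -17.9 points (edgeR adjusted p = 0.0144), a call that was lost without any 1 of the 4 libraries (edgeR adjusted p from 0.0534 to 0.0990). At D4 it was -10.1 points and not called (edgeR adjusted p = 0.720), on a day when 0.0806% of tiles were called lower. From day to day it was called lower at D8 against D6, by -10.7 points (edgeR adjusted p = 0.0367), and at D10 against D8, by -12.1 points (edgeR adjusted p = 0.0219). The D8 step lost its call without D6 replicate 1, without D6 replicate 2 or without D8 replicate 1, and the D10 step without D10 replicate 1 or D8 replicate 2.

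**Figure D1:**
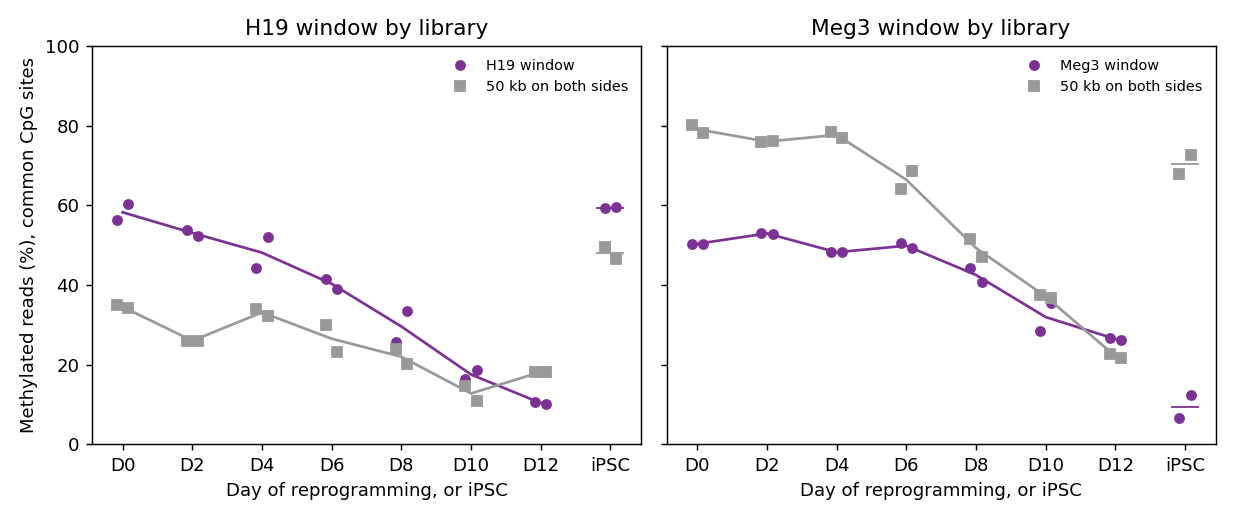
Methylated reads in percent at common sites (y axis) in each library by collection day, with iPSCs at the right end of the x axis. Circles are the H19 window (left panel) or Meg3 window (right panel), squares are 50 kb on both sides, and lines or dashes are means of 2 libraries. The iPSC libraries of the H19 window, at 59.4% and 59.5%, lie level with D0, with most of their reads in the first tile. Those of the Meg3 window, at 6.60% and 12.3%, lie under every other library.

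Of the 22 tiles of the 3 windows, 9 held a listed site and 4 had at least 3 common sites. All 4 of these were called lower at D12 against D0, where 82.7% of tiles were. In iPSCs against D0, 2 of the 4 were called lower, where 9.45% of tiles were. In iPSCs against D12, 2 were called higher, where 79.8% of tiles were, and 1 lower, where 1.49% were.

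The H19 tiles differed in their levels. The first tile, chr7:142129001-142130000, has 4 common sites but supplied 806 to 3011 reads per library, most of those in the window, so it weighs most in the window's value. H19 is transcribed from the reverse strand, so the first tile lies at the far end of the window from the upstream control region, which is on the side of the higher coordinates. With each site given equal weight, the H19 window in iPSCs was -15.8 points from D0, the opposite sign to the read-weighted difference of +1.21.

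The first tile fell at D12 and was high in iPSCs. It stood at 6.85 ± 2.23% at D12 and 59.0 ± 3.37% at D0 (-52.1 points, edgeR adjusted p = 3.11e-07). In iPSCs it reached 65.4 ± 0.832%, which is +6.41 points from D0 and not called (edgeR adjusted p = 0.515), and +58.5 points from D12 (edgeR adjusted p = 2.51e-07). The 3 sites at positions 142129532, 142129554 and 142129600 lay between 77.0% and 86.5% in the iPSC libraries, against 62.5% to 80.3% in the D0 libraries. In D0 replicate 1 the last of these was at 62.5%, and all the other values of these sites were above 70%, higher than 1 methylated allele gives in a pool of cells. The remaining common site of the tile, at position 142129705, read 4.22% and 3.37% in the iPSC libraries, against 5.49% and 3.02% in the D0 libraries.

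The fourth tile, chr7:142132001-142133000, was also low at D12 and high in iPSCs, on 3 common sites and 51 to 174 reads per library. Its level was 19.4 ± 0.567% at D12 and 85.4 ± 14.0% at D0 (-66.0 points, edgeR adjusted p = 0.000131). In iPSCs it was 75.3 ± 1.66%, -10.1 points from D0 (edgeR adjusted p = 0.472) and +55.9 points from D12 (edgeR adjusted p = 0.00106). The 2 D0 libraries differed widely, at 95.3% and 75.5%, and the iPSC libraries, at 76.5% and 74.1%, reached the lower of them. The sites were not alike. At position 142132594 the iPSC libraries read 52.9% and 46.8%, below the 89.8% and 72.2% of D0. At positions 142132598 and 142132602 the iPSC and D0 libraries overlapped.

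The third tile, chr7:142131001-142132000, held 8 common sites and 130 to 657 reads per library, and these sites kept a low level in iPSCs. All 8 were on the reverse strand, and forward-strand sites were listed in few libraries. At forward-strand positions 142131697, 142131716 and 142131781, iPSC replicate 2 read 63.6%, 54.5% and 33.3%, on 11 to 15 reads. There D0 replicate 1 read 26.7%, 26.7% and 37.0%, on 15 to 27 reads. On the common sites the values were as follows. The libraries read 14.2% and 24.0% in iPSCs, 19.2% and 32.4% at D12, and 48.2% and 39.9% at D0. The iPSC and D0 libraries did not overlap. The iPSC mean of 19.1 ± 6.92% was -25.0 points from 44.1 ± 5.90% at D0 (edgeR adjusted p = 0.0213) and -6.70 points from 25.8 ± 9.32% at D12, which was not called (edgeR adjusted p = 0.276). The D12 mean was -18.3 points from D0 (edgeR adjusted p = 0.0226). Between D2 and D10 the tile stayed near one level, with means from 32.8% to 37.0%.

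Both calls of the third tile were lost under several alternatives. That of iPSCs against D0 was lost without iPSC replicate 1 (-20.1 points, edgeR adjusted p = 0.184), without D0 replicate 1 (-20.8 points, 0.163) and without D0 replicate 2 (-29.2 points, 0.0555). That of D12 against D0 was lost without D12 replicate 1 (-11.7 points, 0.190) and without D0 replicate 1 (-14.1 points, 0.137). With all 4 libraries it was also lost when sites were required only in these libraries (edgeR adjusted p = 0.0580), with only these groups in the fit (0.0595) and with merged strands (0.0612). The call of iPSCs against D0 was lost with merged strands (0.0515) and with only these groups in the fit (0.05003).

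The sixth and seventh tiles, chr7:142134001-142135000 and chr7:142135001-142136000, lie on the upstream side, where the control region is, and were thinly covered. Without a GRCm39 annotation, whether they lie inside the control region was not determined. These tiles held 6 listed sites at 3 CpGs (the C and the facing C of each), of which 3 sites were common. At position 142134967 on the forward strand the iPSC libraries read 5.26% and 4.55%, against 64.7% and 80.6% at D0. At position 142134924 on the same strand they read 5.26% and 26.1%, against 82.4% and 76.7% at D0. At position 142135123 they read 5.26% and 0% (23 reads, which allow up to 13.04%), against 18.8% and 19.4% at D0.

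On the reverse strand of these CpGs, the iPSC libraries read 25.0% and 12.5% at position 142134968, against 57.9% and 47.8% at D0. At position 142135124 they read 25.0% and 24.4%, against 66.7% and 65.2% at D0. At position 142134925 they read 6.25% and 12.2%, against 1.75% and 30.4% at D0. At position 142134925 the iPSC and D0 libraries overlapped, and no test was run on these single sites.

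With sites required only in the 4 libraries compared, the sixth tile had 4 sites and 70 to 148 reads per library and could be tested. It stood at 11.7 ± 2.47% in iPSCs, against 50.8 ± 15.4% at D0 (-39.0 points, edgeR adjusted p = 0.0354). At this setting 9.62% of 127784 tiles were called lower. At D12 it stood at 15.0 ± 6.02%, -35.8 points from D0 (edgeR adjusted p = 0.0178), where 78.6% of 144718 tiles were called lower. Its iPSC and D12 levels differed by -3.23 points and were not called (edgeR adjusted p = 0.553), with 76.8% of tiles called higher and 1.68% lower. On its 2 common sites alone, in a fit that took tiles with a single common site, the sixth tile was not called in iPSCs against D0 (-20.5 points, edgeR adjusted p = 0.271).

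The seventh tile, with 1 common site and 13 to 57 reads, stood at 24.7 ± 0.431% in iPSCs, against 65.9 ± 1.02% at D0, in the same fit. That difference was -41.2 points and was not called (edgeR adjusted p = 0.0805), with 7.03% of 132711 tiles called lower. At D12 the seventh tile stood at 16.8 ± 18.1%, which is -49.1 points from D0 and was called (edgeR adjusted p = 0.00424), with 78.5% of tiles called lower.

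**Figure D2:**
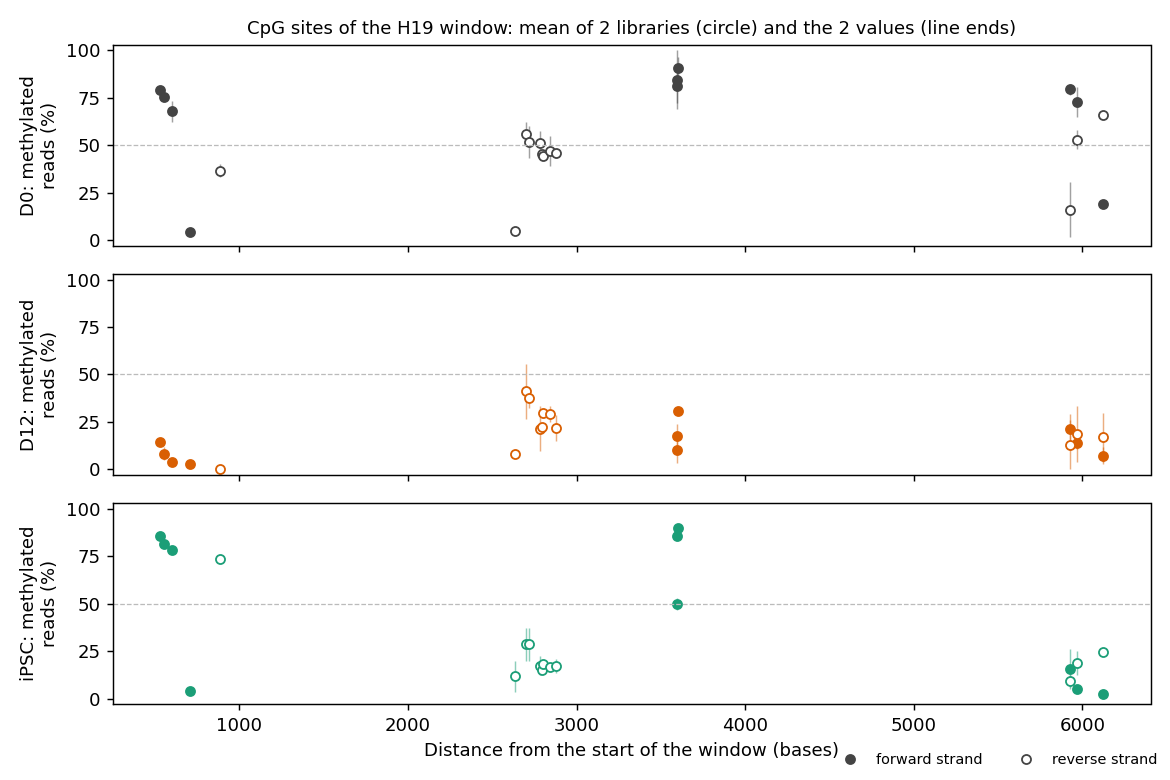
Methylated reads in percent (y axis) at each CpG site of the H19 window listed in both libraries of D0, of D12 and of iPSCs, by distance from the window's start in bases (x axis), 1 panel per group. Circles are means (filled for the forward and open for the reverse strand) and line ends the 2 libraries. In iPSCs the first and the fourth tile have means of 65.4% and 75.3%, with 1 site of the first near 0, and those in the third and the sixth are low.

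Of the 18 common H19 sites, 3 read under 20% already at D0, at 4.46% to 10.0% with the 2 libraries pooled, while the median of the others was 59.4%. The library protocol fills the ends of MspI fragments with cytosines of its own, but whether these 3 sites lie at such ends was not tested. Without them, an alternative chosen after seeing the data, the H19 differences were larger, at -58.6 points for D12 against D0 and +60.6 points for iPSCs against D12. For iPSCs against D0 the difference was +2.05 points (edgeR adjusted p = 0.707). In the Meg3 window 0 of 40 common sites read under 20% at D0.

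In the Meg3 window, 39 of the 40 common sites lay in the fourth tile, chr12:109506001-109507000, so its values follow the window closely. It stood at 9.16 ± 4.09% in iPSCs, 26.3 ± 0.335% at D12 and 50.6 ± 0.424% at D0. Within it the promoter CpGs shown above stood at 3.12 ± 1.82% in iPSCs. Their 21 common sites, with 762 to 1559 reads per library, read 1.84% (Wilson 95% interval 1.10% to 3.06%) and 4.41% (3.28% to 5.91%) in the iPSC libraries. They read 22.1% and 25.6% at D12 and 44.9% and 51.2% at D0. The intervals treat all counts as independent and are therefore too narrow. A read that covers several CpGs is counted at each, and PCR copies of a fragment are not independent molecules. The tiles picked for staying under 15% averaged 4.02% in the iPSC libraries.

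The promoter CpGs stood between 48.1% and 54.3% through D6 and under that range from D8 on. Their group means were 48.1 ± 4.47% at D0, 54.3 ± 2.01% at D2, 49.5 ± 1.36% at D4 and 50.4 ± 4.95% at D6. The later means were 40.5 ± 0.421% at D8, 32.0 ± 1.93% at D10 and 23.9 ± 2.52% at D12. At the CpG inside TGACGTCA, the reverse strand read 0% and 0% in iPSCs (48 and 75 reads, which allow up to 6.25% and 4.00%), 21.6% and 16.7% at D12, and 44.8% and 48.3% at D0. At the CpG inside CCGG, the forward strand read 7.69% and 10.0% in iPSCs, 20.9% and 21.4% at D12, and 41.3% and 37.1% at D0. On its reverse strand the CCGG CpG read 6.67% and 10.96% in iPSCs, 0.909% and 12.2% at D12, and 37.7% and 43.5% at D0. The iPSC libraries lay below those of D12 inside TGACGTCA and on the forward strand of CCGG, while on the reverse strand of CCGG the iPSC and D12 libraries overlapped. On these strands both groups lay below D0. No test was run on single sites. The CCGG CpG lies in the site that MspI cuts, where the protocol fills the fragment ends with cytosines of its own. At D2 its strands differed, at 52.8% and 59.1% on the forward and 27.0% and 27.7% on the reverse strand. Whether filled-in cytosines were read there was not tested.

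The 17 common sites upstream of the promoter CpGs kept more methylation in iPSCs, and the 2 iPSC libraries differed there. They read 17.8% and 29.2% in iPSCs, 39.4% and 27.9% at D12, and 59.4% and 51.6% at D0, on 290 to 803 reads per library. The iPSC and D12 libraries overlapped on these sites, unlike on the promoter CpGs. Since the promoter CpGs were picked for being low in iPSCs, this contrast follows in part from that choice, and it was not tested. The upstream sites were not alike. Those nearest the promoter CpGs, at positions 109506528, 109506552 and 109506607 on the reverse strand, read 2.94% to 6.06% in the iPSC libraries. The low stretch in iPSCs thus extended upstream past the promoter entry. The 2 common sites after the promoter CpGs read 6.25% and 11.7% in iPSCs, against 37.2% and 32.9% at D0.

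The neighbouring tiles had too few common sites for the test over all libraries, and neither was called at D12 against D0 on the sites of the 4 libraries compared. At this setting the fifth tile, chr12:109507001-109508000, stood at 45.2 ± 1.59% at D12, against 51.1 ± 3.06% at D0 on 9 sites (-5.81 points, edgeR adjusted p = 0.364, not called). On the 4 sites that iPSCs and D0 had in common it stood at 5.32 ± 7.52% in iPSCs, against 63.9 ± 5.16% at D0 (-58.6 points, edgeR adjusted p = 0.0263). The iPSC value rests on 10.6% in replicate 1 and 0% in replicate 2. The 43 reads of replicate 2 are a sum over sites with 10 or 11 reads each, which allow up to 30.0% or 27.3%. The third tile, chr12:109505001-109506000, stood at 32.0 ± 5.22% in iPSCs, against 49.7 ± 20.5% at D0 on 3 sites, and was not called (edgeR adjusted p = 0.319). At D12 it stood at 50.4 ± 9.76%, against 48.7 ± 19.6% at D0 on 4 sites (+1.70 points, edgeR adjusted p = 0.958).

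**Figure D3:**
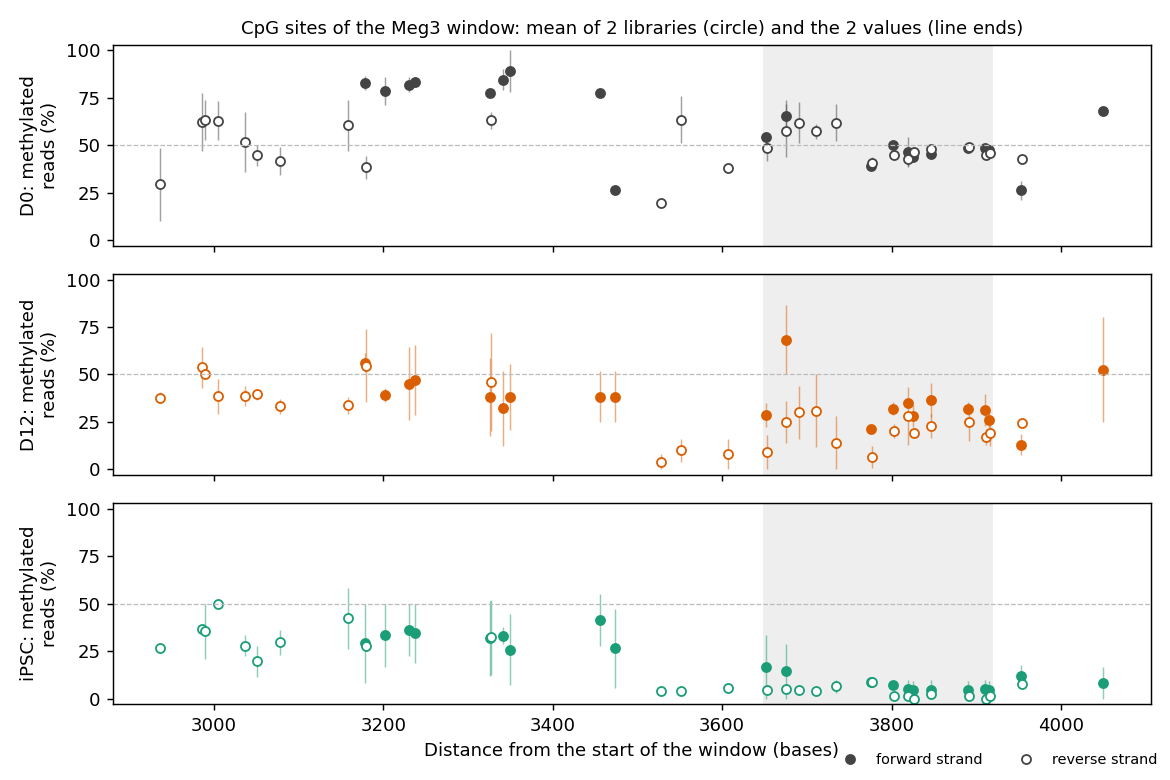
Methylated reads in percent (y axis) at each CpG site of the Meg3 window listed in both libraries of D0, of D12 and of iPSCs, by distance from the window's start in bases (x axis), 1 panel per group. Circles are means (filled for the forward and open for the reverse strand), line ends the 2 libraries, and the grey band the promoter CpGs. In iPSCs the band, picked for being low there, lies near 0, with a mean of 3.12% over its common sites. The common sites before it have a mean of 23.5%, but those nearest to the band on the reverse strand are also low.

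In the H19 and Meg3 windows, fewer single common sites read in the middle range in iPSCs than at D0. Shares over all common sites were not computed, so the counts only describe the windows. In the iPSC libraries 2 and 10 of the 40 common Meg3 sites read between 30% and 70%, in the D12 libraries 18 and 14, and in the D0 libraries 30 and 24. Over 80% were 1 and 6 sites in the D0 libraries, and 0 and 0 in the iPSC libraries. In iPSCs 32 and 27 sites read under 20%. In iPSC replicate 1, 13 sites had 0 methylated reads, and in iPSC replicate 2, 2 sites did. At H19, the iPSC libraries held sites at both ends, with 8 and 5 of 18 under 20% and 4 and 4 over 80%, and 1 and 3 between 30% and 70%. Those over 80% all lay in the first and the fourth tile. In the D0 libraries 10 and 11 of the 18 were between 30% and 70%.

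The flanks of 50 kb, with both sides pooled, moved differently from the Meg3 window. Of their 121 common sites, 110 lay on the right side, and the left side differed from it, as given below. The Meg3 flank stood at 70.3 ± 3.38% in iPSCs, 22.1 ± 0.745% at D12 and 79.1 ± 1.46% at D0, on 121 common sites. Window minus flank was -60.8 ± 0.646 points in iPSCs, +4.29 ± 0.350 points at D12 and -28.8 ± 1.50 points at D0. The D12 minus D0 change of this difference was +33.1 points and the iPSC minus D0 change was -32.1 points. The exact two-sided permutation p was 0.33 for each, the smallest that 2 libraries against 2 allow, so neither could pass 0.05. The left flank, where the intergenic window lies, had 11 common sites and stood at 24.2 ± 2.95% in iPSCs, 10.1 ± 2.16% at D12 and 55.2 ± 4.35% at D0. The right flank had 110 and stood at 74.4 ± 2.44% in iPSCs, 23.6 ± 0.647% at D12 and 81.2 ± 1.17% at D0. The left flank was lower in iPSCs than at D0, as the window was. Against D12 the left flank was higher in iPSCs, while the window was lower. Window minus flank rests mostly on the right flank, and it was not computed for each side.

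The H19 flank held 79 common sites and stood at 48.1 ± 2.11% in iPSCs, 18.2 ± 0.0852% at D12 and 34.5 ± 0.550% at D0. Window minus flank was +11.4 ± 2.22 points in iPSCs, -7.81 ± 0.331 points at D12 and +23.7 ± 3.33 points at D0, with an exact two-sided permutation p of 0.33 for D12 against D0 and for iPSCs against D0. These values depended on the flank. For iPSCs against D12 the change was +19.2 points with flanks of 50 kb and -6.55 points with flanks of 20 kb. With flanks of 20 kb, window minus flank was -6.27 ± 15.1 points in iPSCs and +0.285 ± 0.633 points at D12, both of the opposite sign. The change of iPSCs against D0 was -12.4 points with flanks of 50 kb and -32.3 points with flanks of 20 kb. The H19 flank is mixed, at 26.4 ± 1.73% on the left and 75.1 ± 3.76% on the right at D0.

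Tiles that start from a like level give the setting for these values. Over 17580 tiles at 40% to 60% in D0, the median was 52.7% in iPSCs, 12.9% at D12 and 51.7% at D0. In the Meg3 window, the fourth tile, at 9.16% in iPSCs, was above 0.580% of them, or 102 tiles, and at 26.3% at D12 it was above 93.2%. In the H19 window, the third tile, at 19.1% in iPSCs, was above 2.82% of them, and at 25.8% at D12 above 92.6%. The first tile there was above 81.4% of them in iPSCs and above 12.8% at D12. These ranks are descriptions and were not tested.

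**Figure D4:**
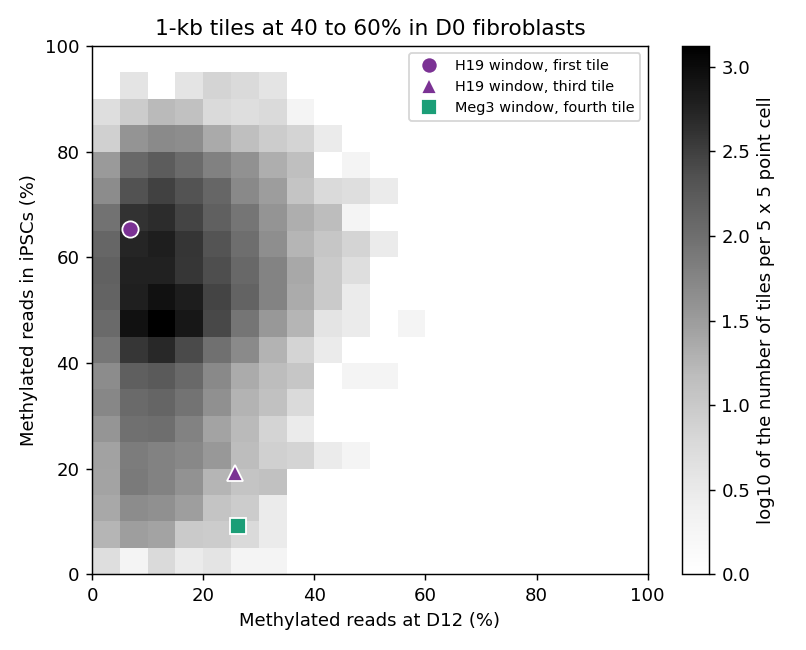
Methylated reads in percent at D12 (x axis) and in iPSCs (y axis) of 1-kb tiles that read 40% to 60% in D0, in cells of 5 by 5 points shaded by the log10 of the number of tiles. The triangle (H19, the third tile, 25.8% and 19.1%) and the square (Meg3, the fourth tile, 26.3% and 9.16%) lie at the lower edge, and the circle (H19, the first tile, 6.85% and 65.4%) lies among the dense cells.

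The tiles elsewhere with the most similar course were found by the Euclidean distance between 8 group means, over 23929 tiles with at least 10 common sites and 200 reads in every library. For H19 they were chr4:139714001-139715000 at a distance of 7.47 points, chr4:43660001-43661000 at 7.82 points and chr5:101506001-101507000 at 7.83 points. For Meg3 they were farther away, with chr17:48126001-48127000 at 10.8 points, chr17:26650001-26651000 at 13.1 points and chr4:118929001-118930000 at 15.2 points. The nearest tile to Meg3 read 19.3% in iPSCs, 29.4% at D12 and 48.0% at D0.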

How the data were processed

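The authors deposited 1 table of CpG sites per library, with coverage as a count of reads and the methylated and unmethylated shares as percent, per the file headers. Every listed site had at least 10 reads. Per the submitters' processing notes, fastp 0.20.1, Bismark 0.23.0, Bowtie2 and methylKit were used, with the GRCm39 genome. DNA was cut with MspI, filled in with Klenow enzyme and amplified for 15 PCR cycles, without molecular identifiers named, per the labels' protocols.

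Methylated reads were recovered as coverage times percent, and came out whole at every site within the rounding of the deposited percent. Levels were computed from sites with at least 10 reads in all 16 libraries, strands kept apart. Counts of methylated and unmethylated reads in windows, flanks and tiles with at least 3 such sites were fitted together with edgeR 4.0.16 in R 4.3.3 (1 effect per library, 1 methylation coefficient per group, 8 residual degrees of freedom). The calculation was tested on simulated data. Alternatives were 20 reads per site, other site sets, merged strands, equal site weights, 2 groups only, a replicate block, a minimum of 25 points, flanks of 20 kb, a quasi-binomial model and leaving out each library. Named items were the 2 loci, tiles of their windows and, for each window, the 3 tiles of nearest course. The members, windows and tests were chosen with earlier results of these data known. RefSeq tables of GRCm38.p6 served for the Meg3 sequence only, and a GRCm39 annotation was not used here.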

Additional observations from a re-analysis of the deposited data

How the results depend on the processing

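The window comparisons of D12 against D0 and of iPSCs against D12 kept their direction under every alternative run, as did Meg3 in iPSCs against D0, and 229 of 258 alternative values of the main results kept both their direction and their side of the threshold or size. With each site weighted equally the H19 difference was -34.3 points for D12 against D0, 18.5 points for iPSCs against D12 and -15.8 points for iPSCs against D0, the last with its sign reversed. Leaving out single libraries gave -0.762 to 3.17 points for H19 in iPSCs against D0. With every listed site, H19 in iPSCs against D12 was 47.0 points and Meg3 at D12 against D0 was -22.9 points. A minimum of 25 points, by its construction, ended the Meg3 calls of D12 against D0 (-23.9 points) and iPSCs against D12 (-17.0 points). It left 2 tiles lower at D12 against D0, 0 tiles lower in iPSCs against D12, 0 H19 steps from day to day and 0 days of Meg3 against D0. With 20 reads per site, fewer sites and tiles remained: 2 tiles were lower at D12 against D0, where 4 were, 1 was lower in iPSCs against D0, where 2 were, and 1 was higher in iPSCs against D12, where 2 were. Tiles lower in iPSCs against D0 numbered 4 with sites shared by the 4 libraries, 1 with only the 2 groups in the fit, and 1 to 2 without single libraries. With merged strands 2 tiles were lower in iPSCs against D12, where 1 was, and 1 H19 step was called, where 2 were. The third tile of H19 then lost its calls against D0 (adjusted p = 0.0515 for iPSCs and 0.0612 for D12, edgeR). Without single libraries 1 to 2 H19 steps were called. The quasi-binomial model called 1 Meg3 step, where edgeR called 0. With flanks of 20 kb, H19 window minus flank in iPSCs against D12 was -6.55 points. Uncalled Meg3 differences from D0 changed sign with 20 reads per site, to 0.491 points at D4 and 2.36 points at D6, and, for D6, spanned -1.08 to 0.108 points without single libraries. Apart from the 25-point minimum, the cause of these shifts was not tested.

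Libraries of the same number did not deviate together (28 pairs, correlation -0.0144 to 0.00778, 0 over 0.1), so the numbers do not pair them. With the replicate number as a block the Meg3 difference for iPSCs against D0 was -40.9 points (edgeR adjusted p = 9.66e-05), 4 tiles were lower at D12 against D0, and no call of the windows or of their tiles changed. Depth limits the tiles with a single common site, where a library held as few as 13 reads in the seventh tile of H19 and 12 in the third tile of Meg3.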
